A study of Mus musculus with 2 samples.

Results

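RNA-binding motif and splicing factor genes were examined in spleen cells of arthritic mice. The arthritis had been induced with the enzyme glucose-6-phosphate isomerase, GPI. The families were the serine/arginine-rich splicing factors (Srsf), the heterogeneous nuclear ribonucleoproteins (Hnrnp), the SF3A and SF3B subunits of the U2 small nuclear ribonucleoprotein (snRNP), the numbered RNA-binding motif genes (Rbm) and the cold-inducible RNA-binding protein Cirbp. Genes were chosen by symbol, and the probe set that stands for each gene was selected on its mean log2 signal over the 2 arrays, the highest being taken. Of the 12393 genes with a probe set named by a single symbol, 58 were members, namely 9 Srsf, 18 Hnrnp, 3 Sf3a, 6 Sf3b and 21 Rbm genes and Cirbp. Rbm3, the other well-known cold-inducible gene of this kind, was not a member, since its probe set carries the symbol of a pseudogene as well. Several symbols per probe set kept Hnrnpa3, Rbm4 and Rbm10 out as well, and no value is given for these genes.

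Male DBA/1 mice, obtained at 6 to 8 weeks of age, were immunized with 300 μg of recombinant human GPI fused to glutathione S-transferase (GST), and control mice received 100 μg of GST alone. Both antigens were given in complete Freund's adjuvant, so the adjuvant was common to both groups. Spleens of 3 mice per group were taken on day 10, and the total RNA of the splenocytes was hybridized to Affymetrix mouse 430A2.0 GeneChips, 1 for each group. The sources used here do not say whether the RNA of the 3 spleens was pooled. Each probe set, a group of short probes for a transcript, yields 1 linear intensity value, the signal. No test between groups was possible with a single array on each side, and every ratio below (GPI-immunized over control signal) describes this pair of arrays. Sufficient signal means that the brighter of both signals was at least 50.2, the median of all signals. Between the brightest pair of probe sets of the same gene, the log2 ratio had an SD of 0.26 per probe set (2538 genes), a factor of 1.20, which serves as a technical yardstick and holds no variation between mice. Measured markers were 11 of 13 listed for B cells, 13 of 16 for T cells and 6 of 10 for red cell precursors. For neutrophils they were 17 of 20 and for macrophages 10 of 10. None of the measured markers was listed at 0.

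Splicing removes introns from pre-mRNA in the spliceosome. SR proteins bind exonic sequences and promote the use of nearby splice sites, whereas hnRNP proteins often block them, so the balance of both families shapes alternative splicing. SF3A and SF3B hold the U2 snRNP on the branch point. Lymphocytes rely on such control, the best-known case being the switch of CD45 isoforms on T cell activation. Cirbp is a small glycine-rich RNA-binding protein whose mRNA rises with mild cold and falls with heat.

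Cirbp was the only member that was at least 2-fold lower in GPI-immunized splenocytes, and no member was at least 2-fold higher. The other 55 members with sufficient signal stayed between a ratio of 0.725 and 1.51. Sufficient signal was found for 56 of the 58 members (96.6%) and for 56.2% of all genes. Among the 6961 genes of the arrays with sufficient signal, 0.445% were at least 2-fold lower and 2.23% at least 2-fold higher. At a 1.5-fold limit, 1 member was lower, again Cirbp, and 1 was higher, Rbm6, against 3.23% and 7.04% of all genes. Ratios below 1 were found for 27 of the 56 members (48.2%) and for 42.4% of all genes. These last counts depend on the scaling. When each array was divided by its median, which lowers every log2 ratio by 0.09, 37 members (66.1%) and 54.9% of all genes were below 1, no member reached 1.5-fold higher, and the shares of all genes at the 1.5-fold limit became 5.49% lower and 5.16% higher. The median log2 ratio of the members was 0.01 with an SD of 0.27, and 0.23 without Cirbp, beside a median of 0.06 and an SD of 0.40 over all genes. Most members had bright probe sets. With the limit set at the 75th percentile of all signals (219.8), 52 members had an SD of 0.28 and 3868 genes an SD of 0.36. Only Rbm47 (control signal 16.6, GPI-immunized signal 18.5) and Rbm4b (37.2 and 48.9) fell under the signal limit, and Rbm19 (57.4 and 75.9) was the dimmest member above it.

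**Figure D1:**
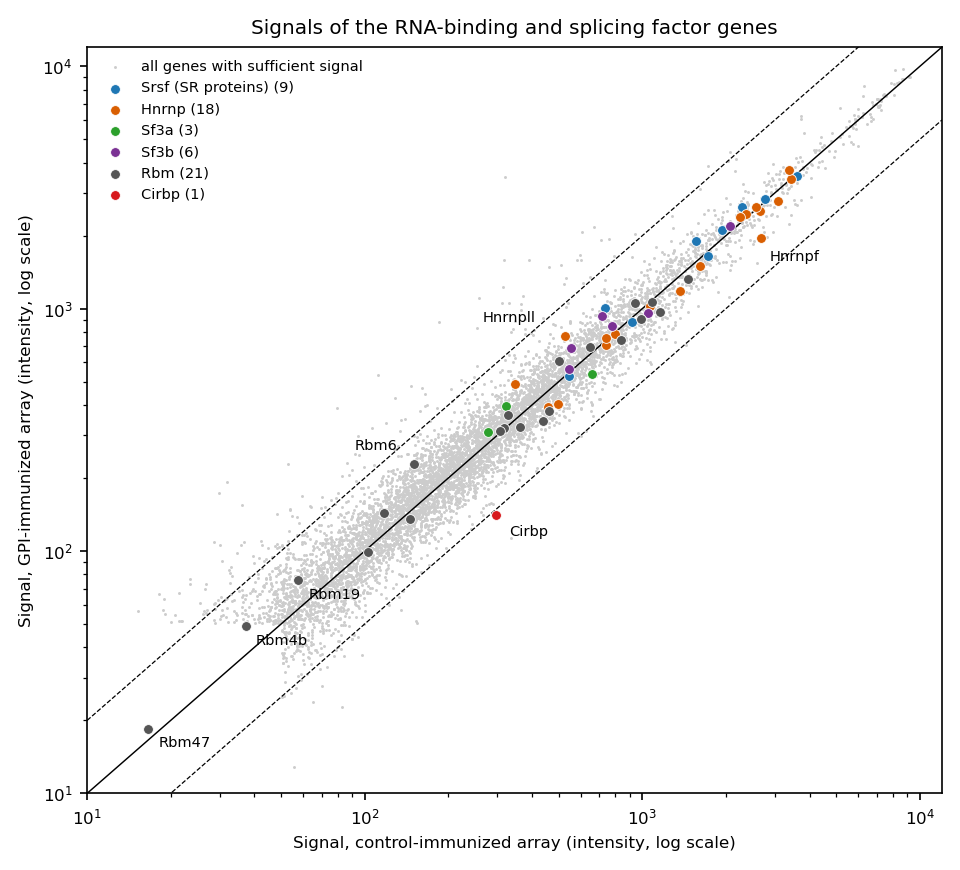
The vertical axis is the signal in GPI-immunized and the horizontal axis that in control-immunized splenocytes, both intensities on log scales that start at 10, with 1 point per gene and 1 array per group. Members are coloured by family, grey points are all genes with sufficient signal inside the axes, the solid line is a ratio of 1 and the dashed lines are 2-fold ratios. Cirbp (297.9 and 140.8) lies below the lower dashed line, and all other members lie between the dashed lines.

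The Cirbp signal was 297.9 in control and 140.8 in GPI-immunized splenocytes, a ratio of 0.473 (log2 ratio -1.08). This is 4.1 times the SD between probe sets of a gene, and 13 of the 6961 genes, Cirbp included, had a ratio this low. The SD of the log2 ratio over all genes was larger, 0.40. The array has 1 probe set for Cirbp, so there is no second reading of this gene. The 3 other scalings gave ratios from 0.444 to 0.449, and the other alternatives could not change this reading. Heat shock genes, mostly for chaperones that help proteins fold and many of them induced by heat, mostly had ratios above 1. The list was not limited to genes that heat induces. Among the heat shock genes, 18 were bright enough, of which 5 were at least 2-fold higher, 10 were at least 1.5-fold higher and none was 1.5-fold lower, with a median log2 ratio of 0.68. The other side held 2 genes, Dnajb4 (ratio 0.984) and Hspa4 (0.936). Hspa1a had signals of 111.8 and 531.2 (ratio 4.75), Hspa1b 389.5 and 1584.0 (4.07) and Hsph1 312.2 and 1050.8 (3.37). Whether Cirbp and the heat shock genes moved for a common reason was not tested.

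Cell type markers moved as well. Of 17 neutrophil markers with sufficient signal all had ratios above 1 (median log2 ratio 1.10), and their summed signal was 36225.5 in control and 54751.8 in GPI-immunized splenocytes. Ratios below 1 were found for 10 of 12 T cell markers (median -0.47, summed signal of 2937.7 and 2116.4) and 9 of 10 B cell markers (median -0.42, 26541.7 and 22295.2). Red cell precursor markers were below 1 in 3 of 5 genes (median -0.33, 15988.6 and 14246.1), and macrophage markers in 2 of 9 (median 0.20, 4627.3 and 5181.0). Over all probe sets with sufficient signal, those of T cell markers were 14 below 1 and 2 above. Those of B cell markers were 12 below and 7 above, and those of red cell precursor markers 5 and 5. Among these markers with sufficient signal, read on their brightest probe sets, Fcer2a had the lowest ratio, 0.491 (log2 ratio -1.03). Fcer2a is CD23, the low-affinity IgE receptor of B cells. The ratio of Cirbp, 0.473 (-1.08), was close to that of Fcer2a. In whole splenocytes, fewer cells of a type and less RNA per cell cannot be told apart, and the part of cell composition in the ratio of Cirbp was not tested. The 3′/5′ signal ratio of β-actin, a measure of RNA integrity, was 1.49 for the control and 1.42 for the GPI-immunized sample. That of Gapdh was 0.946 and 0.839. The part of RNA integrity in the ratio of Cirbp was not tested either.

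The sequences upstream of the start sites of Cirbp, the member with the lowest ratio, and of Rbm6 and Hnrnpl, both among the 3 highest, are given for comparison. They are the 250 bases before the RefSeq start (GRCm38.p6, 5′ to 3′ on the strand of the gene), at chr10:80167589-80167838 on the plus strand for Cirbp, whose other start site lies downstream, chr9:107872820-107873069 on the minus strand for Rbm6 and chr7:28810640-28810889 on the plus strand for Hnrnpl. Capitals mark matches, on either strand, to the GC box, the CCAAT box, the mild cold response element and a heat shock element core.
Cirbp: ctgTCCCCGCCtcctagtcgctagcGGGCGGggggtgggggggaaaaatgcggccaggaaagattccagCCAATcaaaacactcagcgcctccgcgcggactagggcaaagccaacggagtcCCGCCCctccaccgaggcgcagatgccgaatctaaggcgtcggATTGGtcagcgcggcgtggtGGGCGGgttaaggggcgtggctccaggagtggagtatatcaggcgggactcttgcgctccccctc
Rbm6: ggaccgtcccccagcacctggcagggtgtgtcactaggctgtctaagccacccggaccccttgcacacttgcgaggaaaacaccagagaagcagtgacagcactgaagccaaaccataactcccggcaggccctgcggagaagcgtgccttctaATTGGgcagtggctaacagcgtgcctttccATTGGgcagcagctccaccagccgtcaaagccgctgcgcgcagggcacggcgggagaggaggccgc
Hnrnpl: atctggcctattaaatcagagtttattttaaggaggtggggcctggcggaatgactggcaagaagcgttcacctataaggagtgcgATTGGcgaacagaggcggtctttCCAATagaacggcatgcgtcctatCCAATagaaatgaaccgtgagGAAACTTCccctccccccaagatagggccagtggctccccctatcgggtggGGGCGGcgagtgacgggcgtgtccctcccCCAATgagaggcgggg
The mild cold response element (TCCCCGCC) was present in the Cirbp sequence, starting 247 bases upstream of the start. Cirbp also held 3 GC boxes (GGGCGG) and 2 CCAAT boxes, of which none overlapped another match. Rbm6 had 2 CCAAT boxes and no other match, and Hnrnpl had 4 CCAAT boxes, 1 GC box and a heat shock element core (searched as GAANNTTC) at 96 bases. The cold response letters occurred upstream of 3 of the 52 members in the promoter table (5.77%) and of 5.37% of all 27025 genes in it. GC boxes occurred in 61.5% of members and 35.4% of genes, CCAAT boxes in 51.9% and 37.5%, and the heat shock core in 9.62% and 7.73%. These are matches of letters and not measured binding. A gene counted if any of its start sites had a match. The 27025 genes were not limited to those with sufficient signal.

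SR proteins, which promote exon inclusion, were measured for 9 genes, all with sufficient signal, and their ratios ran from 0.956 to 1.37. No Srsf gene reached 1.5-fold in either direction. Srsf9 had the highest ratio of the family, with signals of 735.4 and 1009.1 (ratio 1.37), which is 1 probe set. Srsf6 followed with 1557.4 and 1891.9 (1.21), although its other probe sets ran down to 0.979, and Srsf2 with 2280.1 and 2618.2 (1.15), where all 3 probe sets with sufficient signal were above 1. Srsf3, a small SR protein that also takes part in mRNA export, had signals of 1929.0 and 2105.4 (1.09), and its 6 probe sets all lay between 1.02 and 1.27. Srsf1, the founding SR protein, had 2755.1 and 2834.8 (1.03), and 5 of its 6 probe sets were above 1. The 4 others were slightly below 1, with ratios of 0.976 for Srsf5, 0.974 for Srsf10, 0.965 for Srsf4 and 0.956 for Srsf11. Srsf10, a splicing repressor when heat shock removes its phosphates, had a brightest probe set that stood lowest, and its other probe sets reached 1.46. Over all probe sets of the family with sufficient signal, 20 of 27 had ratios above 1, as did 6389 of 10739 over all genes. The family median log2 ratio was 0.04, and -0.05 when each array was divided by its median, so no direction is given for the family.

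The SF3A and SF3B genes encode the proteins that anchor the U2 snRNP at the branch point. Of these 9 genes, 7 had ratios above 1 and none reached 1.5-fold (median log2 ratio 0.12). Over all genes with sufficient signal, 4006 of 6961 were above 1 (median 0.06), and 3.23% were 1.5-fold lower and 7.04% higher. The highest was Sf3b3, from 717.4 to 934.4 (ratio 1.30), then Sf3b5, from 554.4 to 689.0 (1.24), and Sf3a3, from 323.6 to 397.0 (1.23, with 1.54 at its other probe set). Sf3a1 had a ratio of 1.12, and Sf3b1, the large subunit that contacts the branch region, 1.06 from signals of 2067.7 and 2186.9. Sf3b2 was at 1.09 and Sf3b4 at 1.03, with 0.565 at the other probe set of Sf3b4. Sf3a2 was below 1 on both of its probe sets, the brighter from 657.6 to 536.7 (0.816), and Sf3b6 on its brightest, from 1050.5 to 962.5 (0.916). The other probe sets of Sf3b6 with sufficient signal gave 1.03 and 1.62. With each array divided by its median, 5 of the 9 genes were above 1 and the median was 0.03. When the probe sets of a gene were averaged, dim ones included, 6 of the 9 were above 1 and the median was 0.04. Over all genes these medians were -0.04 and 0.07.

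The 18 Hnrnp genes lay on both sides of 1, with 10 below and 8 above and a median log2 ratio of -0.04. With each array divided by its median, 15 were below 1 (median -0.13). Over all genes, 42.4% were below 1 (median 0.06), and 54.9% after division by the median (median -0.04). The pair at the top was Hnrnpll and Hnrnpl, paralogues that both silence the variable exons of CD45. Hnrnpll had signals of 526.2 and 767.2 (ratio 1.46), and its dimmer probe set had a ratio of 1.30. Hnrnpl had signals of 348.9 and 487.7 (1.40) on a single probe set. Under the alternatives the ratio ran between 1.30 and 1.46 for Hnrnpll and between 1.31 and 1.40 for Hnrnpl. Only the 3 other scalings could change the single reading of Hnrnpl. The next Hnrnp gene, Hnrnpab, was at 1.10, with its 5 probe sets of sufficient signal between 1.02 and 1.26. At the low end, Hnrnpul2 went from 498.5 to 404.0 (0.810) and Hnrnph3 from 455.3 to 391.2 (0.859). Hnrnpk, an abundant poly(C)-binding protein, had signals of 2643.4 and 2517.7 (0.952), and all 4 of its probe sets lay between 0.862 and 0.952. Hnrnpa1, which antagonizes SR proteins at splice sites, had 1371.2 and 1184.0 (0.863) with other probe sets at 0.668 and 1.07.

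Hnrnpf and Hnrnpa2b1 could not be settled because their probe sets differed. Hnrnpf, a binder of G-rich RNA, was the second lowest member from its brightest probe set, with signals of 2685.0 and 1946.4 (ratio 0.725). Its next probe sets gave 1498.8 and 1785.0 (1.19) and 1206.0 and 1578.5 (1.31), and its dimmest 931.9 and 878.4 (0.943). The direction of Hnrnpf thus turns with the choice of probe set. For Hnrnpa2b1, the brightest probe set had 3419.8 and 3429.6 (1.00), while another bright one had 2597.4 and 974.1, a ratio of 0.375. This was the largest disagreement between probe sets with sufficient signal of any member, a factor of 2.67. The remaining probe sets of Hnrnpa2b1 gave 0.849 and 0.846, so 3 of its 4 were below 1. Its brightest probe set stood 1.55-fold above the mean of its others. The lowest readings of Hnrnpf and Hnrnpa2b1 come from probe sets whose name ends in _x_at. This is the suffix for sets with probes that can match other sequences. Of 18 such probe sets of members with several readings, 5 differed by at least 1.5-fold from the mean of the gene's other probe sets (27.8%), against 7.24% of 773 over all genes. They belonged to Hnrnpa2b1, Hnrnpf, Rbm39, Sf3b4 and Sf3b6. For probe sets ending in _at alone the shares were 3.64% of 55 in members and 10.8% of 3393 over all genes, so that over the whole array _x_at sets did not differ more often than these. Whether cross-matching probes underlie these readings was not tested.

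**Figure D2:**
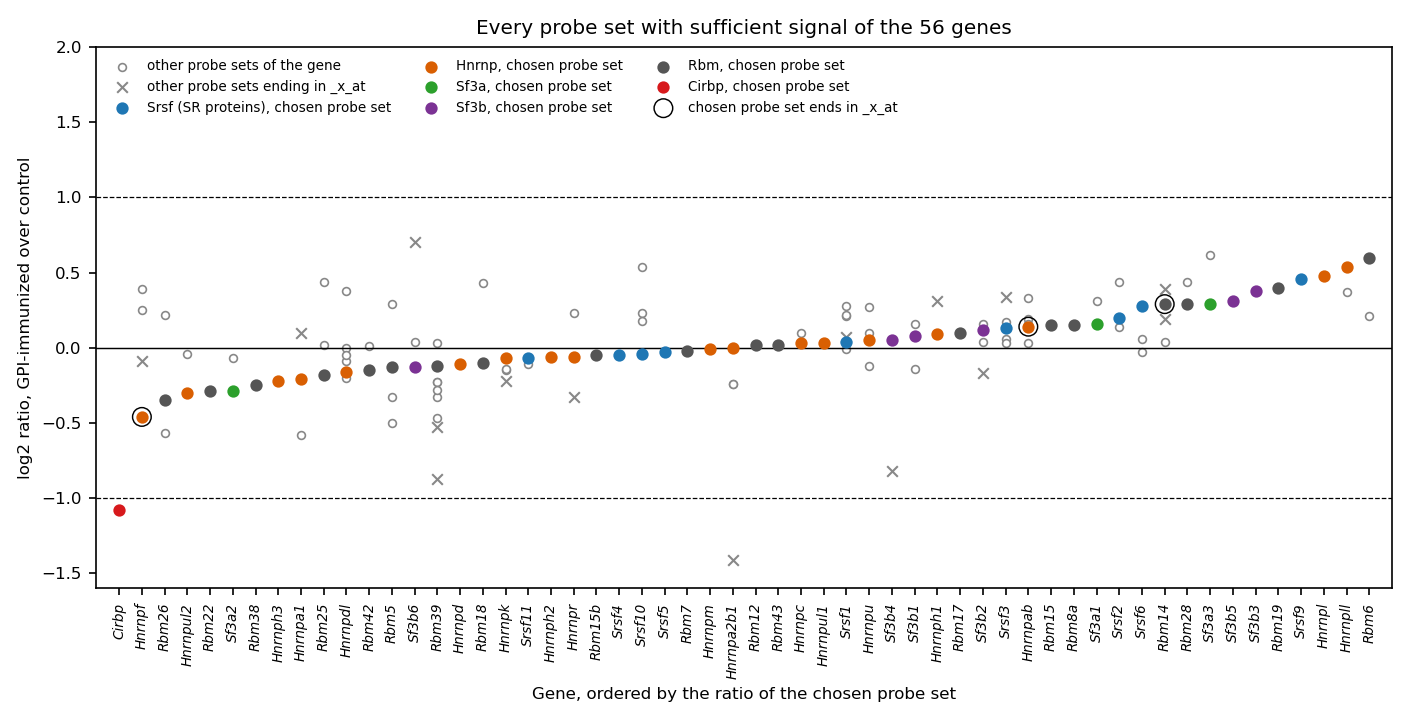
The vertical axis is the log2 ratio (GPI-immunized over control) of every probe set with sufficient signal of the 56 members with sufficient signal, ordered by the chosen probe set (filled, coloured by family), with 1 array per group. Open circles are other probe sets of the gene, crosses are other probe sets ending in _x_at, ringed points are chosen probe sets of that kind, and dashed lines are 2-fold ratios. Cirbp, on its 1 probe set, lies at -1.08, and the cross of Hnrnpa2b1 lies lower still while its chosen probe set lies at 0.

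Of the 21 Rbm genes, 19 had sufficient signal, 10 with ratios below 1 and 9 above. These became 12 and 7 after division by the median, and 7 and 12 when the probe sets of a gene were averaged, dim ones included. Over all genes, 42.4% were below 1, and 54.9% and 40.4% under these alternatives. Rbm6 was the highest of all members, with signals of 150.9 and 228.3 (ratio 1.51), although its other probe set had 163.9 and 189.9 (1.16). Rbm5, its neighbour and paralogue, which regulates the splicing of apoptosis genes, went from 1455.6 to 1329.7 (0.914). The paralogues thus lay on opposite sides of 1, but the 4 probe sets of Rbm5 ran from 0.705 to 1.22. Next to Rbm6 came Rbm19 (ratio 1.32) and Rbm28 (116.9 and 142.9, ratio 1.22), both nucleolar proteins of ribosome assembly, and Rbm14 (499.5 and 609.1, ratio 1.22), a paraspeckle protein whose 4 probe sets with sufficient signal were above 1. All of these Rbm14 sets end in _x_at except the set with signals of 203.8 and 210.0 (1.03).

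The lowest Rbm gene was Rbm26, with 437.9 and 344.0 (ratio 0.786), whose 3 probe sets ran from 0.675 to 1.16. Rbm22, a spliceosome activation factor, had 459.7 and 376.9 (0.820), and Rbm38, a p53 target that also regulates splicing in erythroid cells, had 1155.3 and 969.8 (0.839). Rbm39, a relative of the splicing factor U2AF, was read most often, by 9 probe sets. Its brightest gave 986.9 and 909.3 (0.921), and 8 of the 9 were below 1, down to 0.547. Rbm25, which acts on 5′ splice site choice, had 839.1 and 738.9 (0.881) on its brightest probe set, while its other probe sets with sufficient signal gave 1.01 and 1.35. Nearest to 1 were Rbm7 of the nuclear exosome targeting complex (0.983), Rbm12 (1.02) and Rbm43 (1.01). The exon junction protein Rbm8a had a ratio of 1.11, and Rbm15 and Rbm15b, parts of the m6A RNA methylation complex, 1.11 and 0.963.

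Other genes of the splicing machinery stayed near the members. For comparison, 4006 of 6961 genes with sufficient signal were above 1 (median log2 ratio 0.06, and -0.04 after division by the median). At the 1.5-fold limit, 3.23% of all genes were lower and 7.04% higher. Of 21 snRNP and Sm protein genes with sufficient signal, 15 had ratios above 1 and none reached 1.5-fold in either direction (median log2 ratio 0.13). With each array divided by its median, 13 were above 1 and 1, Snrnp40, was 1.5-fold lower. Of 41 further spliceosome genes 30 were above 1, and again none reached 1.5-fold (median 0.13, and 0.04 after division by the median). SR kinases and SR-related proteins, which act on or beside the Srsf proteins, had 12 of 27 genes above 1 and none at 1.5-fold (median -0.03), with Tra2b, a splicing activator, highest at 1.37 and the kinase Srpk3 lowest at 0.737. Among 40 other RNA-binding regulators, 24 were above 1, 1 was 1.5-fold higher and 1 was 1.5-fold lower (median 0.06). The genes at the 1.5-fold limit were Fubp1, a MYC regulator, from 162.0 to 288.1 (ratio 1.78), and Ptbp2, a polypyrimidine tract-binding splicing repressor, from 356.5 to 213.4 (0.599). When the probe sets of a gene were averaged, dim ones included, the further spliceosome genes had 2 that were 1.5-fold lower and 1 higher, and the SR kinases and SR-related proteins 1 of each. Over all genes these shares were then 4.31% and 8.78%. The 7 genes of nonsense-mediated decay, of which the member Rbm8a is one, ran from 0.846 to 1.14.

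**Figure D3:**
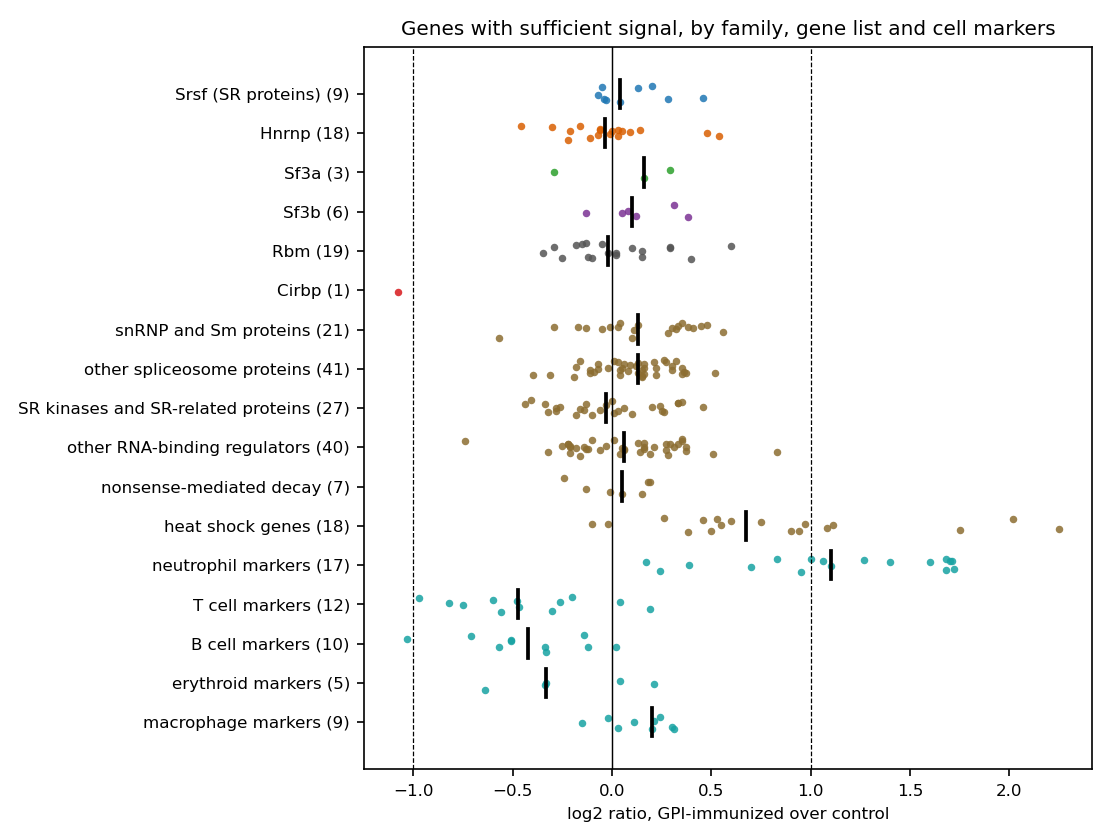
The horizontal axis is the log2 ratio (GPI-immunized over control), with 1 point per gene with sufficient signal and 1 array per group, for the member families (top), other gene lists and cell markers. Vertical bars are medians, dashed lines are 2-fold ratios, numbers in brackets are genes, and the vertical scatter within a row has no meaning. The splicing families and lists cluster around 0, Cirbp lies at -1.08, the heat shock genes have a median of 0.68 and the neutrophil markers one of 1.10.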

How the data were processed

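Signals of 2 Affymetrix mouse 430A2.0 arrays were used, 1 per group. The authors deposited intensity values on a linear scale, analysed with what they call gene expression software. The sources used here do not give how signals were summarized, scaled or called as detected, and the accounts of the labelling differ between the sample labels (cDNA) and the methods (cRNA). The column medians were 48.65 (control) and 51.8, and the number of arrays limits the precision. The platform annotation gave 20380 probe sets exactly 1 symbol, and all 58 members had the same symbol in RefSeq (GRCm38.p6) by gene ID. Ratios were taken without scaling, on the log2 scale, with signals of 0 set to 0.1. A gene was represented by its brightest probe set (mean of both log2 signals).

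Members, gene lists and motifs were chosen with earlier results of these data known. The rule for named genes takes Cirbp, Rbm3, all Srsf, Sf3a and Sf3b genes, the 8 lowest and 8 highest members, members whose probe sets differ 2-fold, the 5 brightest, and up to 4 genes per list. Others were named after their values were seen, and not every gene taken is printed. Alternatives were 3 other scalings, 2 signal floors, other probe set choices and other filters. The steps were tested on simulated data. The tools were matplotlib 3.10.9, statsmodels 0.14.6, pandas 2.3.3, scipy 1.17.1 and numpy 2.4.6 in Python 3.11.15.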

Additional observations from a re-analysis of the deposited data

How the results depend on the processing

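The count of members at least 2-fold lower (1, Cirbp) and at least 2-fold higher (0) was the same under all 10 alternatives, and so was the count of those 1.5-fold lower (1), although floors, filters and probe set choices could not change the single bright reading of Cirbp. The count of members 1.5-fold higher was 1 at first, and 0 after quantile normalization, loess centring, median division or averaging over probe sets. The median log2 ratio of the members, 0.01, became -0.08 with median division, -0.07 with quantile normalization and -0.04 with loess centring, so its sign is not settled, and it was 0.03 averaged over probe sets. Over all genes, the 31 genes 2-fold lower and 155 genes 2-fold higher became 47 and 111 after division by the median, 72 and 209 averaged over probe sets, 1095 and 1260 without a filter, 5 and 70 with the limit at the 75th percentile, and 11 and 111 with the 50th percentile as a floor. Among the 31 other named members, averaging over probe sets moved 6 genes by more than the SD of 0.26 between probe sets, Hnrnpa2b1 to a ratio of 0.721, Hnrnpf to 1.02, Sf3b4 to 0.765, Sf3b5 to 0.921, Sf3b6 to 1.39 and Srsf10 to 1.17. The average took in probe sets without sufficient signal. The move of Sf3b5 came from such a set, with signals of 2.2 and 1.5, and that of Sf3b6 in part from a set with 3.9 and 9.5. Leaving out _x_at probe sets, an alternative chosen after seeing the data, or both _s_at and _x_at sets moved Hnrnpf to 1.19. The limit of these data is the single array per group. No paired analysis was possible because each group has 1 array. Rbm19 has no value with the limit at the 75th percentile and Srsf2 none without _s_at and _x_at sets, since their signals were then too low. Alternatives for Rbm3 were not run, since it has no probe set with a single symbol.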
